A study of Ciona robusta with 8 samples.

Results

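The data described here are the 4 libraries of Tcf gRNA cells from a series of 8 libraries, 2 at 15 and 2 at 18 hours post fertilization (hpf), chosen by their titles. The cells were trunk ventral cells of the sea squirt Ciona robusta, labelled as multipotent progenitors of the heart and pharyngeal muscle and sorted before bulk RNA sequencing. The cells of these 4 libraries had been subjected to CRISPR/Cas9 mutagenesis of Tcf by a guide RNA (gRNA), and those of the other 4 had received a control gRNA, again 2 libraries for each time. The sources used here do not give the promoter that drives Cas9, the share of cells edited, or whether libraries of a group came from separate batches of embryos. All p-values rest on the spread between these libraries, which may be technical. The question was how the RNA of Tcf-targeted progenitors changed over these 3 hours.

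In ascidian embryos, trunk ventral cells migrate from the tail into the trunk and then divide asymmetrically, giving heart precursors near the midline and precursors of the atrial siphon and longitudinal pharyngeal muscles at the sides. Tcf is the DNA-binding partner of beta-catenin. Without a Wnt signal it acts with co-repressors to hold target genes down, and with one it recruits beta-catenin to raise them.

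Genes are counted as KH2013 models, and neither the files nor the reference table supplied with them pairs a model with a gene name. None of the 15232 identifiers matched any of the 21486 reference genes. Models are therefore given by identifier, with no symbol, role, position or sequence. For the same reason the level of Tcf itself was not checked, and neither was the labelled cell type against its markers. Of the 15232 models, 311 had no count in any Tcf library and 11970 passed the filter on low counts and were tested.

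Totals of the Tcf libraries were 7261574 and 7760462 at 15 hpf, and 7763508 and 7764525 at 18 hpf. Levels are given in CPM, which puts counts of all libraries on a common total, here with factors from the trimmed mean of M-values (TMM). On this scale a single count was worth 0.118 to 0.142 CPM. The 2 libraries of a time differed by more than sampling noise, with a chi-square statistic of 13.4 per degree of freedom at 15 hpf and 8.29 at 18 hpf, so none was treated as a duplicate. More models were detected at 18 hpf from similar totals. At least 10 counts were found for 10446 and 10536 models at 15 hpf and for 12060 and 11059 at 18 hpf. The 2 times did not overlap in this number, and replicate 1 of 18 hpf stood above replicate 2. In control libraries the numbers were 10053 and 10578 at 15 hpf and 11207 and 11136 at 18 hpf, from totals that differed more.

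The composition of the RNA shifted between 15 and 18 hpf by more than replicates differ. As a measure for every pair of libraries, the share of counts that would have to be moved between models to turn one library into the other was computed. It was 15.0%, 15.7%, 15.8% and 16.2% in the 4 pairs of Tcf libraries that differ in time. The pair within 15 hpf differed by 5.81% and the pair within 18 hpf by 5.24%. Every pair across times therefore lay far above the replicate pairs. With 2 libraries a side an exact permutation test cannot fall below p = 0.333, so this is given without a test. In control libraries the pairs across times differed by 16.2% to 16.5% and those within a time by 5.64% and 7.76%.

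The losses sat in few models and the gains were spread over many. In the 4 pairs of Tcf libraries, 36 to 48 models made up 50% of all counts lost from 15 to 18 hpf, while 145 to 199 models were needed for 50% of the counts gained. The 10 models with the largest loss held 30.9% to 33.1% of it, and the 10 with the largest gain 11.6% to 15.9%. The ranges did not overlap, but the 4 pairs share libraries, and 1 model, KH.S345.3, held 15.2% to 17.7% of the loss. Models were ranked in the same pair of libraries in which they were summed, so the shares describe those libraries.

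**Figure D1:**
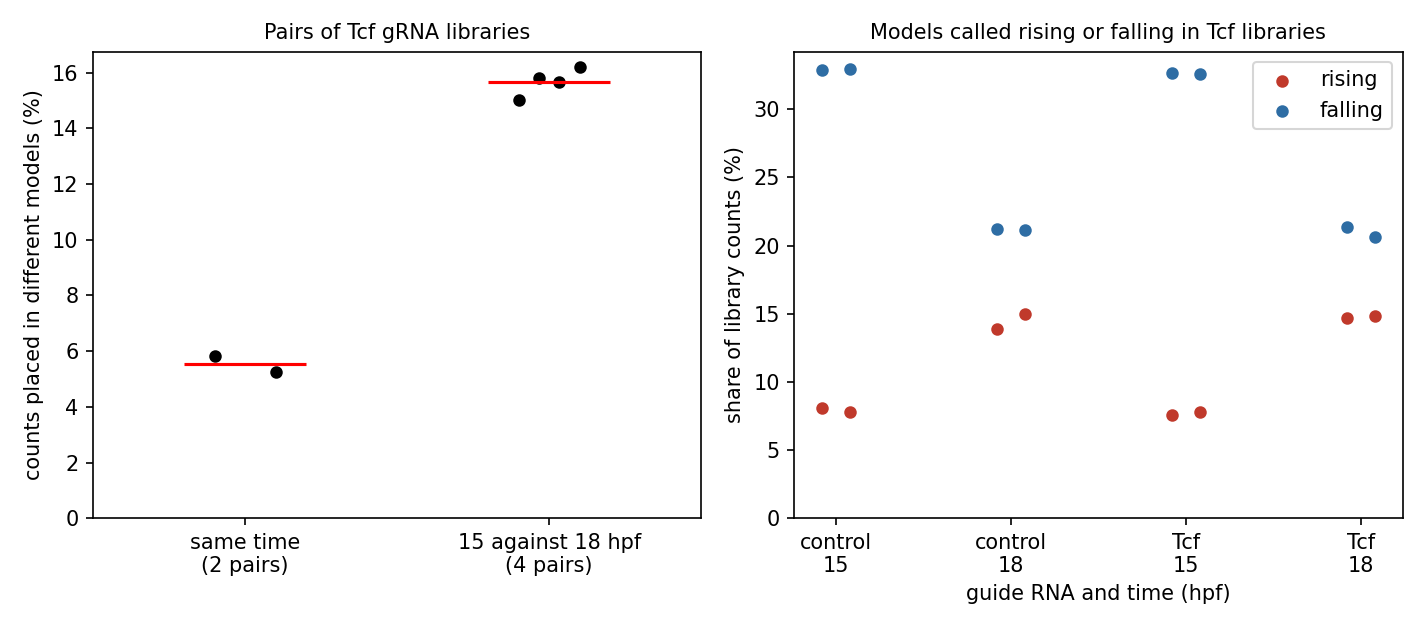
Left, share of counts (%) placed in different models between pairs of Tcf gRNA libraries, with each pair as a point and the mean as a red line. Right, share of each library's counts (%) held by the models called rising (red) or falling (blue) in the Tcf libraries, with each library as a point. The 4 pairs across times lie at 15.0% to 16.2% and the 2 replicate pairs at 5.81% and 5.24%.

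The largest single loss, 15.2% to 17.7% of all counts lost in the 4 pairs, was that of KH.S345.3. It was the most abundant model at both times, with 89886 and 90681 CPM in the Tcf libraries at 15 hpf and 56072 and 57411 CPM at 18 hpf. Both libraries of 18 hpf lay below both of 15 hpf. The model held 8.69% and 8.48% of all counts at 15 hpf and 6.11% and 5.89% at 18 hpf. Its level fell 1.59-fold by edgeR's quasi-likelihood test (log2 fold change -0.67 with an SE of 0.09, adjusted p = 0.000343). In control libraries it had 96646 and 95584 CPM at 15 hpf and 52426 and 60327 CPM at 18 hpf. The size of its fall was not called different between guides by the same test (log2 interaction 0.10 with an SE of 0.12, adjusted p = 0.989). A large loss in 1 model raises the raw share of all others, and the TMM factors, 0.968 and 0.936 at 15 hpf and 1.09 and 1.03 at 18 hpf in Tcf libraries, are meant to offset this.

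KH.L37.67 showed the next largest fall in CPM among called models. It had 12258 and 11769 CPM in the Tcf libraries at 15 hpf and 5742 and 5569 CPM at 18 hpf, so that its level at 18 hpf was lower in both. The fall was 2.12-fold by edgeR's quasi-likelihood test (log2 fold change -1.09 with an SE of 0.14, adjusted p = 0.000478). By mean CPM it ranked 5 at 15 hpf and 6 at 18 hpf. In control libraries it had 11309 and 12064 CPM at 15 hpf and 8187 and 5602 CPM at 18 hpf, where replicate 1 stood above replicate 2.

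By share of counts, the largest single gain in all 4 pairs was that of KH.C8.686, at 3.30% to 6.77% of all counts gained. Its size depended on the library of 18 hpf. It was 3.30% and 3.66% in the pairs with Tcf replicate 1, and 6.46% and 6.77% in those with replicate 2. The rule for naming models, which asks for a call, did not select it, and it is given after its values were seen. The largest rise in CPM among called models was that of KH.C11.21. Its level was 1894 and 1865 CPM in the Tcf libraries at 15 hpf and 3166 and 3457 CPM at 18 hpf, without overlap. It rose 1.76-fold (log2 fold change 0.82 with an SE of 0.10, adjusted p = 0.000247 by edgeR) and moved from rank 54 to rank 16 by mean CPM. The control libraries had 2154 and 1887 CPM at 15 hpf and 3445 and 3324 CPM at 18 hpf. Next came KH.L116.85, with 3308 and 3403 CPM at 15 hpf and 4348 and 5149 CPM at 18 hpf in the Tcf libraries. It rose 1.42-fold (log2 fold change 0.50 with an SE of 0.10, adjusted p = 0.00636 by edgeR), and its rank went from 21 to 8. Its call was lost without Tcf replicate 1 or 2 at 15 hpf or Tcf replicate 2 at 18 hpf (adjusted p = 0.0761, 0.0602 and 0.0948, in a range over 15 alternatives of 0.000718 to 0.0948). These ranks compare read levels, which also depend on transcript length.

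**Figure D2:**
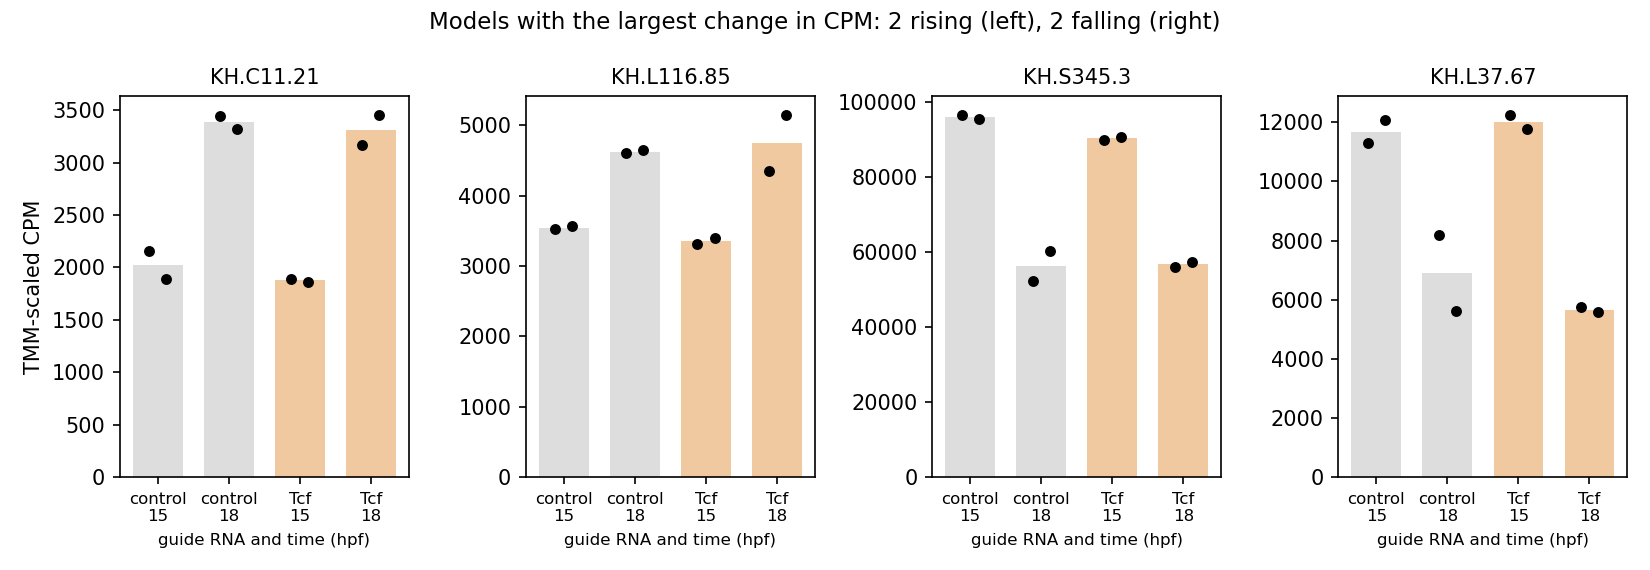
TMM-scaled CPM of the 2 rising and 2 falling called models with the largest change in CPM, with each library as a point and the group mean (2 libraries) as a bar, by guide RNA and time in hpf. In Tcf libraries the 2 times do not overlap in any of the 4 models, and KH.S345.3 falls from 89886 and 90681 to 56072 and 57411 CPM.

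Across the gene set, 1325 of 11970 models tested (11.1%) passed an adjusted p of 0.05 in Tcf libraries, of which 682 rose (5.7%) and 643 fell (5.37%). The median rise was 3.16-fold (log2 1.66, middle 50% from 0.85 to 2.56), and the median fall was 1.86-fold (log2 -0.89, middle 50% from -1.46 to -0.66). Both medians were unaltered when groups under 3 counts in total were set to that floor. The floor touched 26 rising and 5 falling models, too few to move a median far, so this is no check of the medians. Over all models tested the median log2 fold change was 0.04. The medians of rising and falling models cover different mixes of read level. Under 5 CPM 119 models rose and 23 fell. From 500 CPM upwards the medians were log2 0.59 for rises and -0.69 for falls. Of the rising models, 206 changed less than 2-fold, 213 between 2-fold and 4-fold and 263 by 4-fold or more. For falling models these numbers were 353, 208 and 82. All 682 rising models had both libraries of 18 hpf above both of 15 hpf, as had 29.5% of all models tested. All 643 falling models had both below, as had 26.4%. The call rests on these same libraries, so this separation follows largely from it.

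The rising models held 7.57% and 7.76% of the counts in the Tcf libraries at 15 hpf and 14.7% and 14.8% at 18 hpf. The falling models held 32.6% in each library of 15 hpf, and 21.4% and 20.6% at 18 hpf. The test on these libraries chose both sets, so the shares are a description. In the control libraries, which had no part in that contrast beyond the estimate of spread, the same rising models held 8.09% and 7.81% at 15 hpf and 13.9% and 15.0% at 18 hpf. The falling models held 32.9% and 33.0% there at 15 hpf and 21.2% and 21.1% at 18 hpf. Fewer cells of a type and less RNA per cell cannot be told apart in such bulk libraries, here or in any level given.

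**Figure D3:**
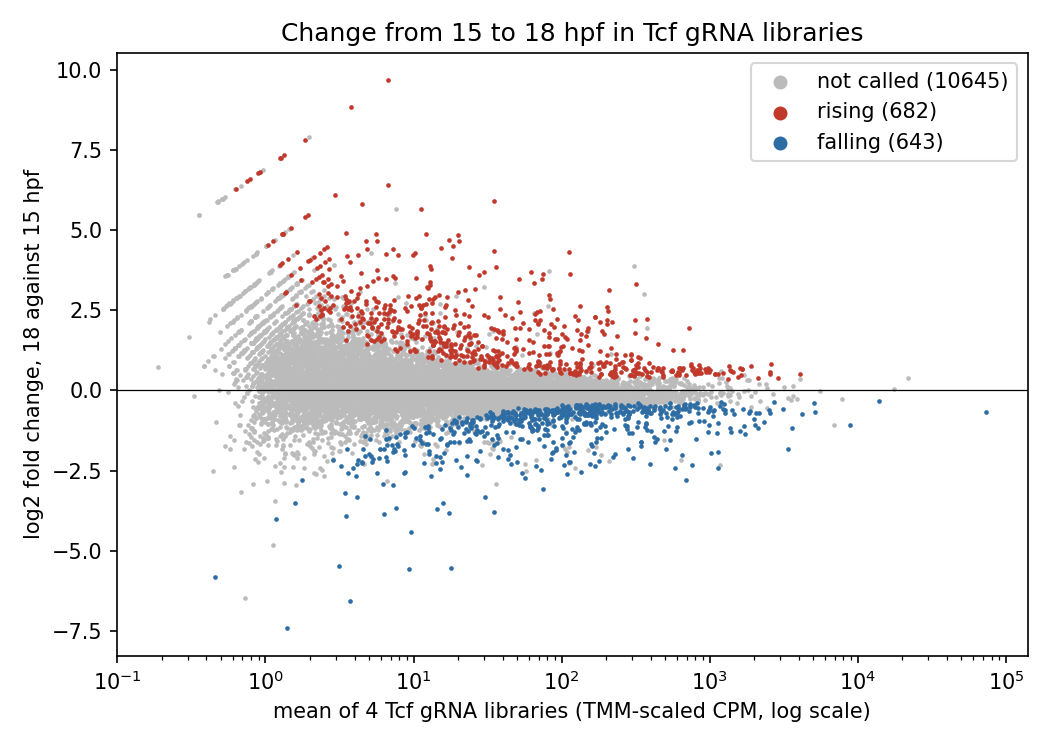
Log2 fold change from 15 to 18 hpf in Tcf gRNA libraries against the mean level of each of 11970 models (TMM-scaled CPM, log scale), with 682 models called rising in red, 643 called falling in blue and the others in grey. The median of called rises goes from log2 3.11 under 5 CPM to 0.59 from 500 CPM upwards. Rises of 4-fold or more also occur at higher levels, such as that of KH.C1.222 at 93.3 CPM. The diagonal stripes at low levels are models with few or no counts at 15 hpf and fitted values that depend on the prior count.

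Both rises and falls were found at every read level, and their balance differed with level. Among the 3794 models with a mean under 5 CPM in the Tcf libraries, 119 rose and 23 fell, and among the 3236 models from 5 to 20 CPM, 185 rose and 83 fell. From 20 to 100 CPM, 184 rose and 218 fell of 3157. From 100 to 500 CPM, 133 rose and 224 fell of 1457, and from 500 CPM upwards 61 rose and 95 fell of 326. In each direction the share of models called went up with level, and so did the precision. The SE had a median of 0.75 on the log2 scale in the lowest class and 0.12 in the highest, so small changes at low levels were not detectable at this depth. Median changes of the called models followed, from log2 3.11 (3.04 with the floor of 3 counts) for rises and -2.58 (-2.43) for falls under 5 CPM to 0.59 and -0.69 from 500 CPM upwards.

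Single libraries bore on this pattern. Rises outnumbered falls under 20 CPM without any 1 of the 4 Tcf libraries, but the number of models under 5 CPM that rose went from 119 to between 32 and 57. The excess of falls from 20 to 100 CPM held without Tcf replicate 1 at 15 hpf (111 rises and 137 falls) and turned into an excess of rises without any 1 of the other Tcf libraries. There were 140 rises and 110 falls when replicate 2 of 15 hpf was left out, 115 and 86 when replicate 1 of 18 hpf was, and 95 and 93 when replicate 2 of 18 hpf was. The excess of falls from 100 CPM upwards was lost only without Tcf replicate 1 at 18 hpf, the library with the most models detected, with 98 rises and 96 falls from 100 to 500 CPM and 53 and 50 from 500 CPM upwards. Without that library the median log2 fold change of all models under 5 CPM went from 0.39 to 0.13. Its part in the excess of rises at low levels was not tested beyond this.

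**Figure D4:**
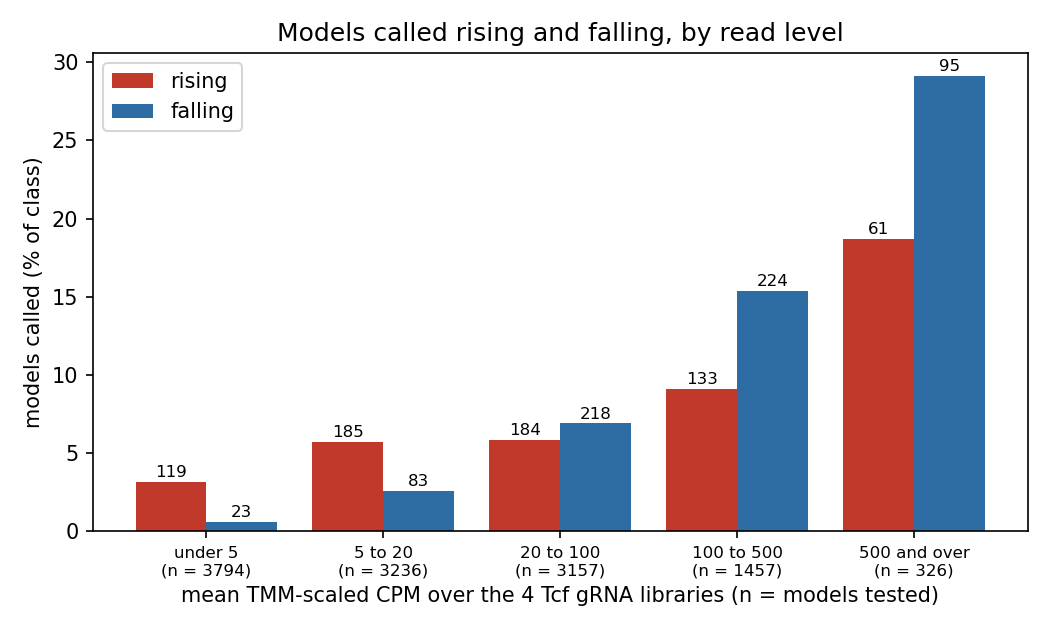
Share of models (%) called rising (red) or falling (blue) from 15 to 18 hpf in Tcf gRNA libraries, in 5 classes of mean TMM-scaled CPM, with the number of models called above each bar and the number tested below. Rises outnumber falls under 20 CPM. With all 4 libraries falls outnumber rises from 20 CPM upwards, which turns round from 20 to 100 CPM without any 1 of 3 of the libraries, and from 100 CPM upwards without Tcf replicate 1 at 18 hpf.

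Few models went between no count and clear presence. In the Tcf libraries 9 models had no count at 15 hpf and at least 10 counts in both libraries of 18 hpf, where single counts ran from 10 to 154. Of the 8 tested, 7 were called rising, beside 5.7% of all models tested. The call rests on the counts that chose these models, so it follows largely from the choice. None of the 9 was at 0 in both control libraries of 15 hpf, but their counts there were mostly few. Single counts ran from 0 to 5, except for KH.C2.977 with 35 and 0, and from 1 to 98 in control libraries of 18 hpf. The 9 models were chosen by their counts in Tcf libraries, so these values do not compare the guides. In the other direction 1 model qualified, KH.C5.85, which was singled out after its values were seen. It had 25 and 15 counts in the Tcf libraries at 15 hpf and none at 18 hpf (edgeR, adjusted p = 0.0225, from the counts that chose it). In the control libraries it had 17 and 4 counts at 15 hpf and none at 18 hpf.

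The change over time in Tcf libraries mostly ran along that in control libraries. In control libraries 856 models rose (7.15% of those tested) and 701 fell (5.86%). Chosen in those libraries alone, the rising models had a positive log2 fold change in Tcf libraries in 833 of 856 cases, or 97.3%, against 53.2% of all models tested, and the falling ones a negative one in 686 of 701, or 97.9%, against 46.8%. The median Tcf change of these sets was 1.12 and -0.79 on the log2 scale, beside 1.78 and -0.99 in the control libraries that chose them. Chosen in Tcf libraries instead, the medians were 1.66 and -0.89 there and 1.45 and -0.81 in control libraries. A set is larger in the libraries that choose it, so neither difference compares the guides. The 488 models that rose under both guides were 71.6% of the Tcf list and 57.0% of the control list. The 451 that fell under both were 70.1% and 64.3%. Both lists rest on the same estimate of spread for each model.

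For a choice that gives both guides equal weight, models were taken from the test of the mean change of both. In that test 1458 rose (12.2%) and 1279 fell (10.7%). Such a choice is even only where both guides vary alike. The replicate pairs differed by 5.24% and 5.81% in Tcf and by 5.64% and 7.76% in control libraries. What the choice adds to a difference between guides was not tested. The rising models had a median change of 1.19 in Tcf and 1.30 in control libraries on the log2 scale, and the median of the difference was -0.11 (-0.10 with the floor of 3 counts, which touched 106 models). The change was smaller in Tcf libraries for 863 of the 1458, or 59.2%. Over all models tested the size of the change was smaller in Tcf libraries for 52.2%. Between single libraries of the 2 times, the median rise was 1.04 to 1.131 in the 4 Tcf pairs and 1.127 to 1.31 in the 4 control pairs, ranges that overlapped slightly. The 2 guides did not overlap at either time in the median log2 CPM of these models. At 15 hpf it was 3.21 and 3.32 in Tcf against 3.12 and 3.13 in control libraries, and at 18 hpf 4.55 and 4.57 against 4.65 and 4.68. The 1279 falling models had medians of -0.71 in Tcf and -0.74 in control libraries, and the fall was smaller in Tcf libraries for 51.6%. Their median log2 CPM overlapped between the guides at both times, at 6.35 and 6.38 in Tcf against 6.36 and 6.40 in control libraries at 15 hpf, and at 5.58 and 5.66 against 5.55 and 5.67 at 18 hpf.

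**Figure D5:**
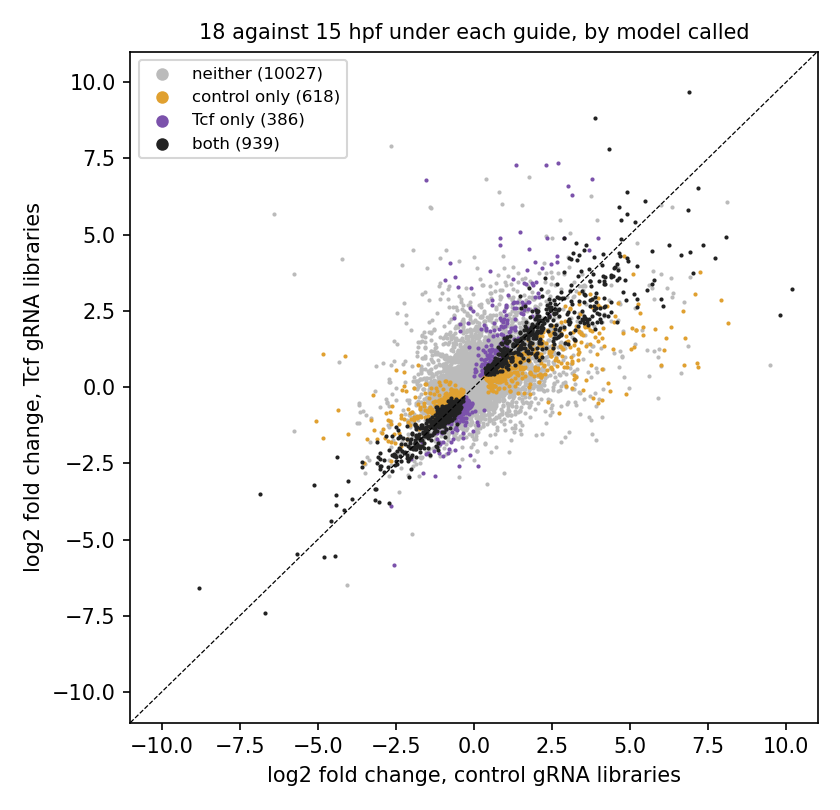
Log2 fold change from 15 to 18 hpf in Tcf against control gRNA libraries for 11970 models, coloured by the guide in which a model was called, with equality as a dashed line. Of the models called, 939 were called under both guides, 386 in Tcf libraries alone and 618 in control libraries alone.

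The interaction of guide and time, which tests this difference model by model, called 0 of 11970 models (0%) with edgeR's quasi-likelihood test, and 561 had an unadjusted p under 0.05. DESeq2 called 21 and limma-voom 0. Of the 1458 models rising in the mean, 169 had an unadjusted interaction p under 0.05, or 11.6%, against 4.69% of all models tested and 5.0% of the falling models. The rise was smaller in Tcf libraries in 141 of the 169 and larger in 28. These are unadjusted values and no call, in the set chosen by the mean change.

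The models with the smallest p for the interaction rose less in Tcf libraries. Models were picked by this p in the same libraries, so a clean order of the guides follows largely from the choice. KH.C1.222 had 37.0 and 28.1 CPM at 15 hpf and 144 and 164 CPM at 18 hpf in Tcf libraries, against 14.0 and 12.1 and then 221 and 205 CPM in control libraries. At 15 hpf both Tcf libraries lay above both control libraries, and at 18 hpf both lay below. It rose 4.73-fold in Tcf and 16.3-fold in control libraries, a difference of -1.78 on the log2 scale (SE 0.24, adjusted p = 0.104 with edgeR, and 2.65e-06 to 0.484 over 14 alternatives, of which 4 passed). KH.C9.326 had 40.2 and 33.8 CPM at 15 hpf and 224 and 238 CPM at 18 hpf in Tcf libraries, and 20.4 and 20.5 and then 276 and 312 CPM in control libraries. The order of the guides was the same as for KH.C1.222, and the difference was -1.20 (SE 0.20, adjusted p = 0.27 with edgeR, and 0.00198 to 0.879 over 14 alternatives, of which DESeq2 alone passed).

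With the opposite sign, KH.C3.443 fell less in Tcf libraries, from 1995 and 1950 CPM to 785 and 839 CPM, than in control libraries, where it went from 2327 and 2679 to 607 and 518 CPM. The difference was 0.87 (SE 0.16, adjusted p = 0.285 with edgeR, and 0.0035 to 0.879 over 14 alternatives, of which DESeq2 alone passed). The Tcf libraries lay below control at 15 hpf and above it at 18 hpf, an order that also follows largely from the choice. KH.C14.94, a model of few counts, went from 25 and 21 counts to 65 and 76 in Tcf libraries, and from 33 and 76 to 39 and 18 in control libraries. Its difference was 2.66 (SE 0.63, adjusted p = 0.722 with edgeR, and 0.208 to 1 over 14 alternatives).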

How the data were processed

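Per the labels' protocols, each library came from small numbers of sorted cells by SMART-Seq v4 cDNA synthesis. The deposited values are raw read counts per gene model, made with TopHat2 2.0.12 and featureCounts per the submitters' processing notes. The sources used here do not give the genome build, the strand setting or the treatment of reads with several positions. Near-identical or overlapping models may therefore share reads. Per the file headers, the 2 control files of 15 hpf carry each other's replicate number, and the titles were followed.

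Counts were analysed with edgeR 4.0.16 in R 4.3.3 (limma 3.58.1). Models were kept (filterByExpr) if at least 2 libraries had a CPM equal to 10 counts in a library of median size. Libraries were scaled by TMM. Then 4 group means were fitted to all 8 libraries, because 2 libraries a group give little information on spread. Contrasts used the robust quasi-likelihood F test, with p-values adjusted by Benjamini-Hochberg over 11970 models and a threshold of 0.05. SEs were derived from the log2 fold change and the F statistic. Log2 CPM used a prior count of 2. Alternatives were DESeq2 1.42.0, its size factors, limma-voom, other filters, the replicate block, the 4 Tcf libraries alone and each library left out. The fit was also run on simulated data. There the share of false calls lay above the threshold and many 2-fold changes were missed. No molecular identifiers are described, so floors cover counting error only.

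Models named were the 2 rising and 2 falling called models with the largest change in mean CPM whose libraries did not overlap, and 2 of each sign with the smallest interaction p. Lists of named pathways could not be applied. Rules and sets were chosen with earlier results of these data known.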

Additional observations from a re-analysis of the deposited data

How the results depend on the processing

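The number of models called in Tcf libraries from 15 to 18 hpf, 1325, stayed within 1.5 times under DESeq2, limma-voom, other size factors, both filters, the replicate block (1078) and the fit of the 4 Tcf libraries alone (1579). It lay between 687 and 1475 when any 1 library was left out, and fell to 806 and 814 without replicate 1 or 2 of the Tcf libraries of 15 hpf and to 687 and 705 without replicate 1 or 2 of those of 18 hpf. In such a fit the lone library is assumed to vary like the other groups. Of the calls, 253 rising and 224 falling models passed in all 4 of them, and 249 and 222 in all 15 alternatives. Rises made up 51.5% of the calls, and between 45.1% (leaving out replicate 2 of the control libraries of 18 hpf) and 58.5% (leaving out replicate 1 of the Tcf libraries of 18 hpf) otherwise. The interaction called 0 models, against 21 with DESeq2, 1 with no filter (KH.C1.222), 1 with the replicate block (KH.C12.572, named after its value was seen) and 0 to 7 without single libraries. The cause was not tested. Models going from no count to presence numbered 38 at a minimum of 5 counts and 5 at 20, and those going to no count 2 and 0. The median interaction of models rising in the mean ran from -0.18 to -0.07 over the alternatives, some added after the data were seen. Distances between Tcf libraries across times were 15.5% without the most abundant model. The replicate numbers are not known to pair libraries. Deviations of same-numbered Tcf libraries from their group means had Pearson's r of 0.06 across genes, and the block moved no count of calls in Tcf libraries by over 1.5 times. With 2 libraries a group and 0.118 to 0.142 CPM a count, changes at low levels had the widest error.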
